A study of Mus musculus with 2 samples.

Results

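The hedgehog genes described here are the ligand *Shh*, the receptor *Ptch1*, the coreceptors *Boc* and *Cdon*, the transducer *Smo*, the transcription factors *Gli1*, *Gli2* and *Gli3*, and the inhibitor *Hhip*. All 9 were among the 29924 gene names on the arrays and were chosen by gene symbol, with every probe that carries the name. They had 14 of the 39429 probes, of which 13 were tested. RNA was from ureters of wildtype NMRI mice at postnatal day (P) 0, the day of birth, explanted and cultured for 18 h. The control medium held the solvent DMSO at a dilution of 1 to 1000, and the treated medium held 5 µM the small molecule IWP-2, which blocks PORCN, the enzyme that acylates WNT ligands for secretion. The comparison asked which transcripts of the ureter respond to the loss of WNT ligand release. Replicate 1 was an array of female pools with the control RNA in the green and the IWP-2 RNA in the red channel. Replicate 2 was an array of male pools with the dyes exchanged. Each of the 4 channels held 1 pool of several ureters, so sex, dye orientation and array changed together between the replicates and cannot be told apart.

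SHH is made by the urothelium of the ureter and signals to the surrounding mesenchyme. PTCH1 holds SMO inactive until it binds the ligand, a step aided by the coreceptors BOC and CDON. Active SMO acts through the primary cilium on the GLI factors, of which GLI2 is mainly an activator, GLI3 mainly a repressor, and GLI1 an activator that is itself a target. *Ptch1*, *Gli1* and *Hhip* are direct targets of the pathway in many tissues, and PTCH1 and HHIP feed back by binding the ligand.

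In both arrays, IWP-2 cultures had more *Shh* signal than the controls and about 2-fold more signal of the dimmer of the *Ptch1* probes. Only this *Ptch1* probe passed the test across all probes, and the brighter *Ptch1* probe did not. *Gli1* was higher with IWP-2 almost only in the male array, *Hhip* moved in opposite directions in the female and the male array, and *Boc* was slightly lower in both. *Cdon* was slightly higher in both arrays on both of its probes, and the values of *Smo*, *Gli2* and *Gli3* lay close to those of the control. The probes that carry these results are shown by sequence, each 60 bases long and read 5′ to 3′ in the sense of the transcript, with mm9 coordinates from the array files. The probe of *Ptch1* that passed the test is given whole, and the others by their first 30 bases.
Ptch1, dimmer probe, chr13:63612879-63612938, minus strand: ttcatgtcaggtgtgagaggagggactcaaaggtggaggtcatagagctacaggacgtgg
Ptch1, brighter probe, chr13:63610298-63610357, minus strand: catttggatgttttaatttgtaaaagaaaa
Hhip, brighter probe, chr8:82494280-82494339, minus strand: gcagtagccttcatctgtaggttaatagtc
Hhip, dimmer probe, chr8:82490729-82490788, minus strand: tatagaattatgaccatgagcatgaaagac
Shh, chr5:28783983-28784042, minus strand: aatttattattgtgtgaactgtactcacag
The *Ptch1* probes start 2581 bases apart on the genome, the brighter one further 3′. Of the 3 reading frames of the dimmer probe 1 had no stop codon, whereas the brighter probe had a stop codon in all 3 frames. The GC content was 53.3% for the dimmer and 21.7% for the brighter probe. The *Hhip* probes were assigned to the same transcript and start 3551 bases apart.

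The inhibitor was checked on WNT target genes. *Axin2*, a feedback inhibitor of canonical WNT signalling, had a signal of 181 in the control and 42.2 with IWP-2 in replicate 1, and of 154 and 46.7 in replicate 2 (mean log2 ratio -1.91, SE 0.11, limma adjusted p = 0.00832). *Lef1*, a transcription factor of the pathway, fell on its brighter probe (mean log2 ratio -0.87, SE 0.075, limma adjusted p = 0.029). Of 13 tested probes for 9 of the 10 listed WNT targets, 10 were lower after Benjamini-Hochberg adjustment over all probes and 13 were lower in both arrays. Over all 23721 probes tested, 28 (0.118%) were higher and 90 (0.379%) were lower at an adjusted p under 0.05, and the log2 ratios of the replicates correlated with a Pearson r of 0.451 across probes, which share the same 4 pools. There were 0 saturated spots, and 67.8% to 69.4% of the probes were well above background in a channel. All listed markers of smooth muscle (10 of 10) and fibroblasts (8 of 8) were detected in every channel, and of those of kidney epithelium 2 of 6. The median log2 ratio was 0.13 for smooth muscle, -0.09 for fibroblasts, -0.03 for endothelium, 0.17 for blood and immune cells, -0.13 for Schwann cells and neurons and -0.12 for the 1 kidney probe tested, with 0 calls in each list.

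*Shh*, the ligand, had a signal of 759 in the control and 1145 with IWP-2 in replicate 1, and of 913 and 1197 in replicate 2. Both IWP-2 pools lay above both control pools. The ratio was 1.51 in the female and 1.31 in the male array. On the log2 scale these are 0.59 and 0.39, with a mean of 0.49 (SE 0.084, 95% interval 0.28 to 0.70), and the limma adjusted p of 0.103 missed the threshold of 0.05. Of all probes tested, 1.02% had a mean ratio at least as high. The adjusted p over 13 alternative settings ranged from 0.0172 to 0.535 and passed in 2 of them, with normexp background correction and with an intensity trend of the variance. Most urothelial marker probes were also higher in both arrays. All 15 listed genes, among them uroplakins, keratins and *Cdh1*, were well above background in every channel. Their summed signal was 166225 and 202013 in the controls and 209762 and 209642 with IWP-2, a log2 ratio of 0.34 in the female and 0.05 in the male array. Their 20 probes had a median log2 ratio of 0.29, with 0.38 in the female and 0.13 in the male array. Of these probes, 14 were higher in both arrays, 6 moved in opposite directions and 0 passed the test. The highest was a probe of *Trp63* at 0.62. *Cdh1* had log2 ratios of 0.20 in the female and -0.11 in the male array, and *Epcam* had 0.07 and -0.22. The part of these markers in the *Shh* value was not tested. In RNA from whole ureters, a changed share of cells of a type and a changed amount of RNA per cell cannot be told apart.

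**Figure D1:**
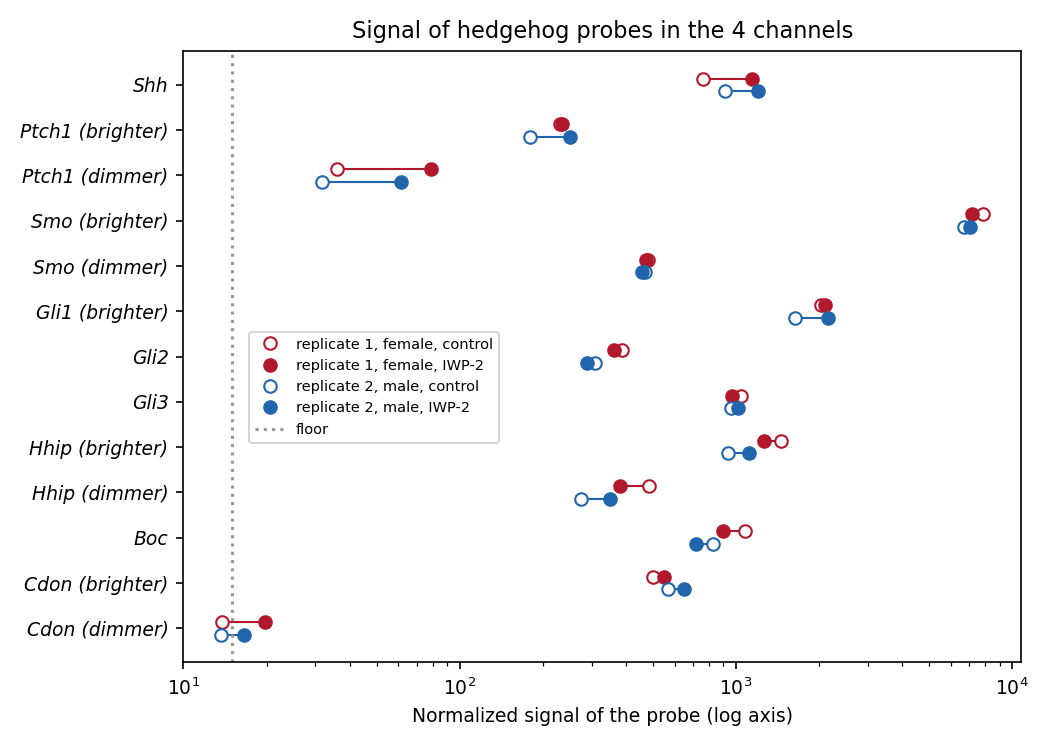
Normalized signal (log axis) of the 13 hedgehog probes tested, with open circles for control and filled circles for IWP-2 pools, in red for replicate 1 (female) and blue for replicate 2 (male), and a dotted line at the floor of 15. For *Shh*, both *Ptch1* probes, *Gli1* and the dimmer *Cdon* probe both filled circles lie to the right of both open ones. For the brighter *Ptch1* probe and *Gli1* the female control lies close to them. For both *Hhip* probes, the brighter *Smo* probe and *Gli3* the filled circles lie between the open ones.

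*Ptch1*, receptor and target, was represented by both probes shown above. The dimmer one had a signal of 36 in the control and 79 with IWP-2 in replicate 1, and of 31.6 and 61.2 in replicate 2. All 4 channels were well above background and the IWP-2 pools were clearly separate from the controls. Its mean log2 ratio was 1.04 (SE 0.081, 95% interval 0.84 to 1.25), 2.06-fold, with 1.13 in the female and 0.95 in the male array and a limma adjusted p of 0.0199. It was the 1 of 13 hedgehog probes that was higher, against the 0.118% of all probes, and 0 were lower, against the 0.379%. The call rested on the variance shared across probes, as 2 arrays leave 1 residual degree of freedom and an exact two-sided sign-flip test over them cannot go below p = 0.5. The call also depended on leaving out probes with both channels of an array at the floor, a choice made after the first fit was seen: in the fit as first written, which kept them, the limma adjusted p was 0.445. It was lost as well with a floor of 1 in place of 15 (adjusted p = 0.0648) and when the channels were not paired within arrays (adjusted p = 0.432). Over its 11 alternatives the adjusted p ranged from 0.00231 to 0.445, and the call was kept in 8.

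The brighter *Ptch1* probe gave another result. Its signal was 231 in the control and 235 with IWP-2 in replicate 1, and 179 and 251 in replicate 2. The female pools were nearly equal, and the IWP-2 pool was higher in the male array only, with log2 ratios of 0.03 and 0.49 (mean 0.26, SE 0.12, 95% interval -0.05 to 0.57, limma adjusted p = 0.462). In the female array, the log2 ratio was thus 1.13 by one probe and 0.03 by the other. Each probe was measured on 4 spots per array, and the lowest spot of the dimmer probe in that array (log2 ratio 1.07) was above the highest of the brighter one (0.08). The *Ptch1* probes were assigned to different transcript records on the array, and which transcripts each probe detects was not tested.

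The 3 genes nearest to the dimmer *Ptch1* probe in the ratios of both arrays, by Euclidean distance over the 2 log2 ratios, were *Strip2* (distance 0.23, log2 ratios 1.00 and 0.76), *Fbp1* (0.3, 0.92 and 0.75) and *Saa2* (0.3, 0.87 and 0.80). *Strip2* encodes a subunit of a phosphatase complex, *Fbp1* an enzyme of gluconeogenesis and *Saa2* an acute-phase protein. Each of them passed the test, with a limma adjusted p of 0.0414, 0.0393 and 0.0292. They were chosen for ratios close to those of a called probe, so that these p-values are no separate result.

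The coreceptor *Boc* had a signal of 1079 in the control and 894 with IWP-2 in replicate 1, and of 824 and 716 in replicate 2. The IWP-2 pool was the lower one within each array, although the female IWP-2 pool was above the male control. Its mean log2 ratio was -0.24 (SE 0.073, 95% interval -0.42 to -0.05, limma adjusted p = 0.256). For *Cdon*, which encodes the related coreceptor, the brighter probe had 501 and 548 in replicate 1 and 569 and 647 in replicate 2. The IWP-2 pool was the higher one in each array, with a mean log2 ratio of 0.16 (SE 0.072, 95% interval -0.02 to 0.34, limma adjusted p = 0.449). The dimmer *Cdon* probe lay at the floor in both controls (13.8 and 13.7) and just above it with IWP-2 (19.7 and 16.5). Its mean log2 ratio was 0.26 (SE 0.089, 95% interval 0.04 to 0.49, limma adjusted p = 0.289), with the controls raised to the floor.

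*Smo*, the transducer, was close to the control on both of its probes. The brighter one had 7853 in the control and 7143 with IWP-2 in replicate 1, and 6714 and 7020 in replicate 2. Both IWP-2 pools lay between the controls, with a mean log2 ratio of -0.04 and a 95% interval of -0.25 to 0.17. The dimmer probe, of which 18 of the dinucleotides are CA, had 482 and 471 in replicate 1 and 468 and 455 in replicate 2, with a mean of -0.04 and an interval of -0.21 to 0.14. The limma adjusted p was 0.962 and 0.951. Changes within these intervals could not be told from none with 2 arrays.

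**Figure D2:**
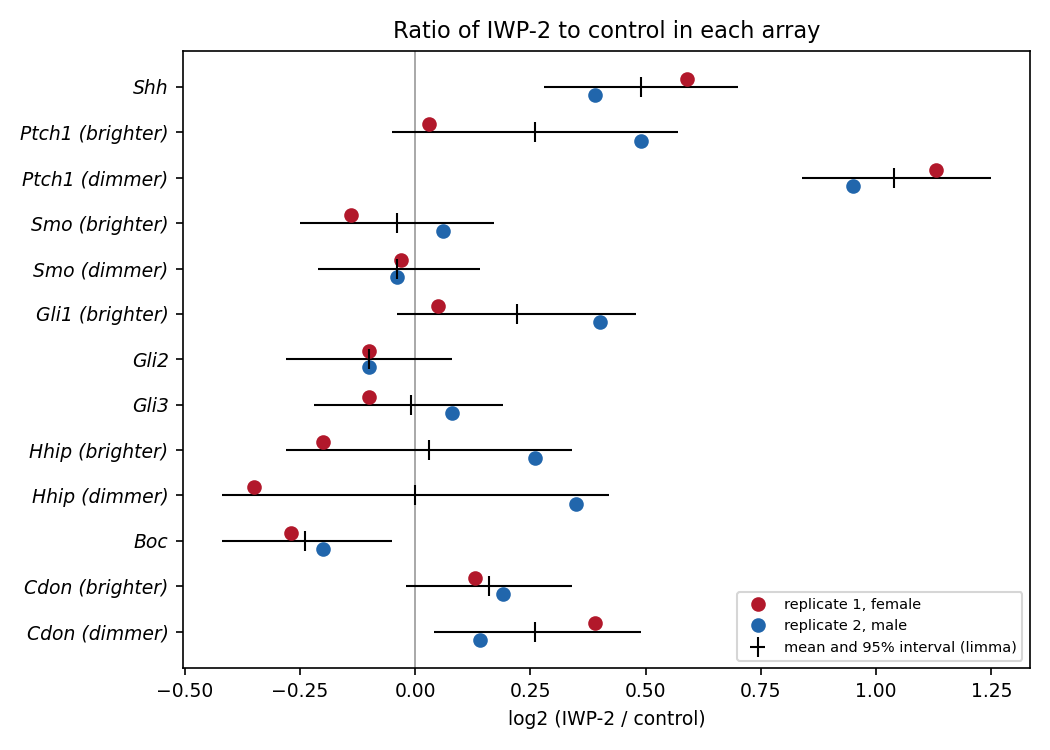
Log2 ratio of IWP-2 to control for the 13 hedgehog probes, with a red point for the female array, a blue point for the male array and a black bar for the mean with its 95% interval from limma. The intervals of *Shh* (0.28 to 0.70) and of the dimmer *Ptch1* probe (0.84 to 1.25) lie above 0, as does that of the dimmer *Cdon* probe (0.04 to 0.49), that of *Boc* (-0.42 to -0.05) lies below 0, and those of both *Hhip* probes cross it with the arrays on opposite sides.

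Among the GLI factors, *Gli1* had a signal of 2035 in the control and 2100 with IWP-2 in replicate 1, and of 1638 and 2160 in replicate 2. The female pools nearly coincided and the male IWP-2 pool was 1.32-fold above its control, a pattern like that of the brighter *Ptch1* probe (log2 ratios 0.05 and 0.40, mean 0.22, SE 0.1, 95% interval -0.04 to 0.48, limma adjusted p = 0.459). The second *Gli1* probe, with signals of 2.22 or less, was not well above background in any channel and was not tested. *Gli2* had 387 and 361 in replicate 1 and 309 and 289 in replicate 2. Its IWP-2 pool was lower by the same small amount in both arrays (mean log2 ratio -0.10, 95% interval -0.28 to 0.08, limma adjusted p = 0.706). *Gli3* had 1040 and 967 in replicate 1 and 959 and 1014 in replicate 2, so that its IWP-2 pools lay between the controls (mean -0.01, 95% interval -0.22 to 0.19, limma adjusted p = 0.993).

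*Hhip*, inhibitor and target, had a signal on its brighter probe of 1457 in the control and 1268 with IWP-2 in replicate 1, and of 932 and 1119 in replicate 2. On its dimmer probe the signals were 483 and 379 in replicate 1 and 275 and 350 in replicate 2. On both probes IWP-2 was lower than control in the female array and higher in the male array, and both IWP-2 pools lay between the controls. The log2 ratios were -0.20 and 0.26 for the brighter and -0.35 and 0.35 for the dimmer probe, with means of 0.03 (95% interval -0.28 to 0.34) and -0.00 (95% interval -0.42 to 0.42) and limma adjusted p of 0.983 and 1. Between the arrays, the control signals differed more than the IWP-2 signals did. The female control was 1.56 and 1.76 times the male control on the brighter and the dimmer probe, and the female IWP-2 pool was 1.13 and 1.08 times the male one. These values restate the opposite ratios. Signals were not normalized between arrays and the dyes were exchanged, so differences of pool, array and dye cannot be told apart.

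The male array gave the higher ratio for all these targets except by the dimmer *Ptch1* probe. The male minus female difference in log2 ratio was 0.70 and 0.46 for *Hhip*, 0.46 for the brighter *Ptch1* probe and 0.35 for *Gli1*, and -0.18 for the dimmer *Ptch1* probe. Among all probes tested, 0.578% and 1.96% had a difference at least as high as the *Hhip* probes, 1.99% as high as the brighter *Ptch1* probe and 4.16% as high as *Gli1*. As with *Hhip*, the female control of the brighter *Ptch1* probe and of *Gli1* was above the male control, by 1.29 and 1.24 times, and the IWP-2 pools were closer to each other, at 0.937 and 0.972 times. Smooth muscle markers differed between the arrays in the same direction, with a summed signal of 100999 in the female and 85900 in the male control and of 100923 and 100513 with IWP-2, and a median log2 ratio of -0.01 in the female and 0.23 in the male array. For fibroblast markers the median was -0.17 and 0.02. Their part in the values of the hedgehog targets was not tested. With 1 array of each sex and dye orientation, the difference between the arrays could not be tested.

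Of the 13 probes, 6 were higher with IWP-2 in both arrays, against 28.2% of all probes tested, 3 were lower in both, against 28.3%, and 4 moved in opposite directions, against 43.4%. Both *Ptch1* and both *Cdon* probes were among the 6, and both *Hhip* probes among the 4. Probes of the same gene were measured in the same pools and are not independent. At an unadjusted p under 0.05 there were 4 probes, namely *Shh*, the dimmer *Ptch1* probe, *Boc* and the dimmer *Cdon* probe, against 13.4% of all probes. The median log2 ratio was 0.03, against -0.00 over all probes.

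**Figure D3:**
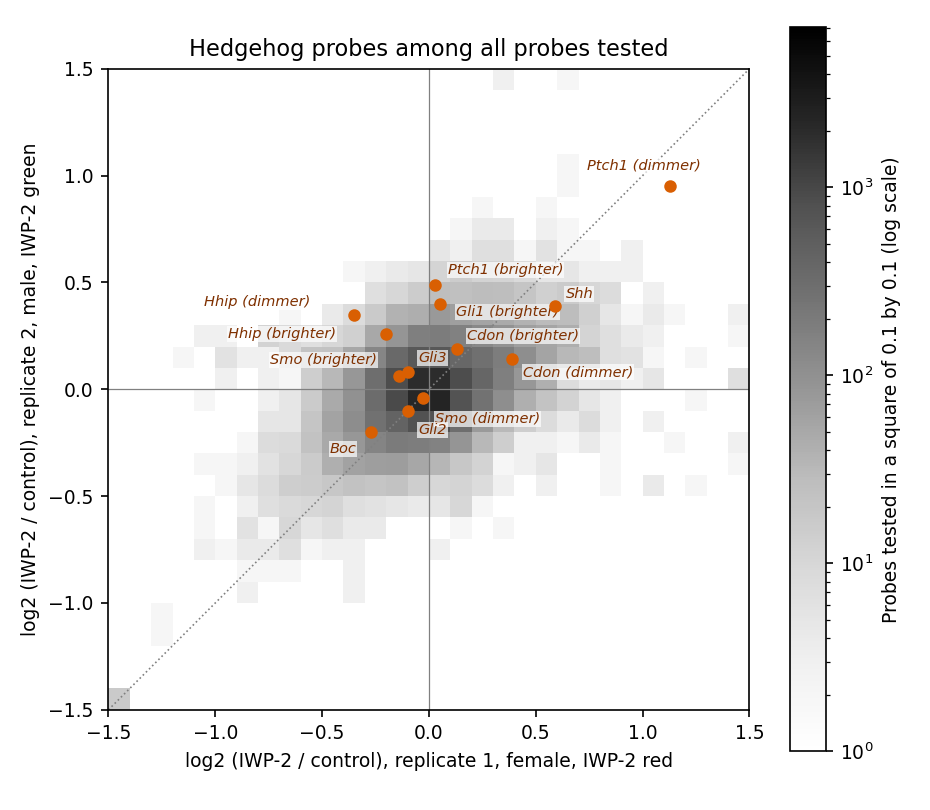
Log2 ratio of IWP-2 to control in replicate 1 (horizontal) and replicate 2 (vertical), with the hedgehog probes as orange points over the number of all tested probes in squares of 0.1 by 0.1 (grey, log scale), where ratios beyond 1.5 are drawn in the outermost squares. The dimmer *Ptch1* probe at 1.13 and 0.95 lies far out along the dotted line of equal ratios, and both *Hhip* probes lie in the upper left, with a negative female and a positive male ratio.

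Of 48 other genes of the pathway, listed by role, 43 had a tested probe, and of their 64 probes 0 were higher, against 0.118% of all probes, and 1 was lower, against 0.379%. It belonged to *Scube3*, which encodes a secreted protein of the family that releases hedgehog ligands from the cell. The *Scube3* probe had 725 in the control and 412 with IWP-2 in replicate 1, and 495 and 317 in replicate 2 (mean log2 ratio -0.73, SE 0.08, limma adjusted p = 0.0449). Both IWP-2 pools were below both controls, and its second probe was lower in both arrays as well (mean -0.45, adjusted p = 0.125). The call was lost under 6 settings, with an adjusted p up to 0.607.

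Among the ligand and release genes, *Scube2* followed *Scube3* in size with a mean log2 ratio of 0.23, and *Dhh*, another hedgehog ligand, had -0.18. In the reception list, the largest values by the brightest probe of each gene were those of *Lrp2*, an endocytic receptor with a dim probe (-0.33), and of the glypicans *Gpc6* (-0.19) and *Gpc3* (0.05). Apart from *Scube3*, none of these passed the test.

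By the brightest probe of each gene, the largest values in the cilium and SMO relay list were those of *Efcab7* (0.31), whose product anchors a ciliary complex with EVC, *Tulp3* (-0.17), a ciliary trafficking factor, and *Kif3a* (0.15), a motor subunit of ciliary transport. By the same measure, the largest in the GLI processing list were those of the kinase genes *Ulk3* (0.21), *Gsk3b* (0.14) and *Stk36* (-0.13). Among other targets, *Mycn*, a driver of proliferation, had a mean log2 ratio of -0.38 (limma adjusted p = 0.129), and *Foxf1*, a mesenchymal forkhead factor, had 0.37 and 0.38 on its probes (limma adjusted p = 0.217 and 0.141). *Foxd1*, another forkhead factor, had -0.20. The medians of the lists were -0.13 for ligands and release, 0.03 for reception, 0.01 for cilium and SMO relay, -0.01 for GLI processing and -0.01 for other targets, against -0.00 over all probes.

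**Figure D4:**
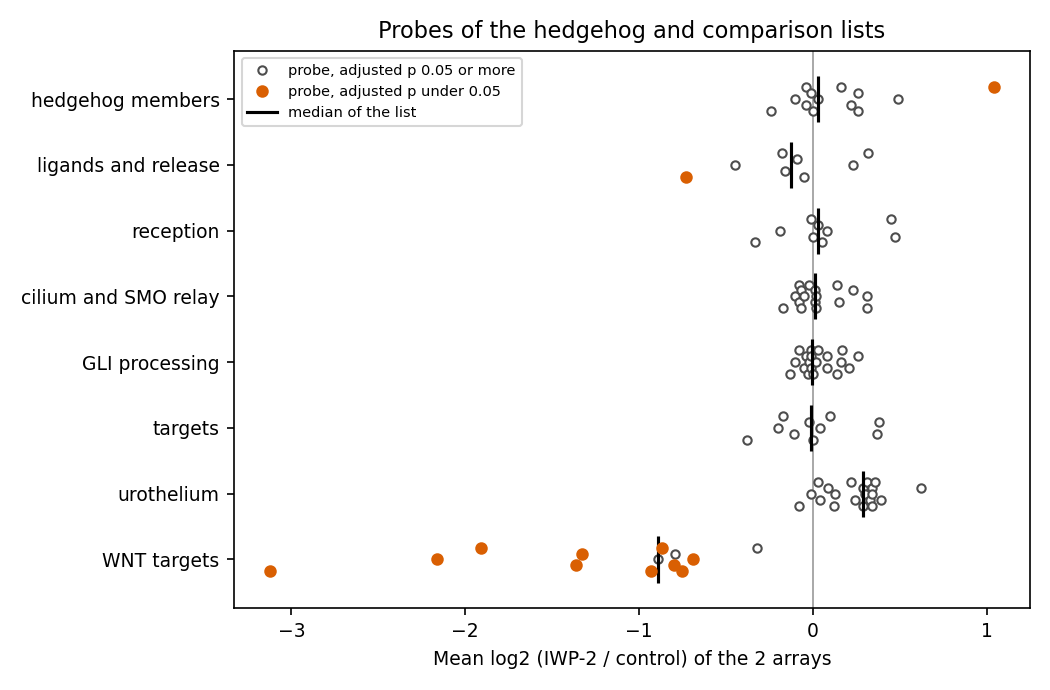
Mean log2 ratio of IWP-2 to control over the 2 arrays for each tested probe of the 9 hedgehog genes, of the 5 further pathway lists, of urothelial markers and of WNT targets, with called probes in orange and a bar at the median of each list. The hedgehog lists have medians from -0.13 (ligands and release) to 0.03, the urothelial markers have a median of 0.29 and the WNT targets of -0.89.

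Promoters of 6 of the 9 genes were in the RefSeq table (GRCm38.p6, 250 bases before to 50 after the start), and 0 of them held the GLI motif GACCACCCA or its reverse complement TGGGTGGTC. The same window held it in 83 of 32851 promoters (0.253%).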

How the data were processed

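The arrays were Agilent whole mouse genome oligonucleotide arrays with 2 colours. The deposited scanner files hold, for each of 157716 non-control spots, the authors' processed intensity in each channel, which is background-subtracted and dye-normalized, flags for outlier spots and for signal above background and the red over green ratio as log10. This ratio was used only to check direction and equalled log10 of the processed intensities within 0.001 for 82.8% and 83.1% of the spots. The file headers name Feature Extraction 12.2.0.7, the submitters' processing notes 10.7.3.1. The deposited series table holds a score, which is a fold change with a sign and 1 decimal (column medians 1 and 1). Comparison with the arrays set its direction as IWP-2 over control and its scale as linear, with 94.3% and 94.2% of the values within 0.1 of the fold recomputed here, and the authors' centring is not given in the sources used here. Columns of samples outside the series numbered 0.

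Spots with an outlier flag (3.32% and 3.22%) were left out. Loess normalization was applied to each array with limma 3.58.1 under R 4.3.3. The spots of each probe were averaged, values under 15 were raised to that floor, and log2 ratios were taken of IWP-2 over control, with the RNA in each channel taken from the sample labels. Probes well above background in both arrays in at least 1 condition were kept (26849). Of these, 3128 with both channels of an array at the floor were left out, because their ratios of exactly 0 removed the shared variance estimate. This was decided after the first fit, which gave 0 calls, was seen. The simulated data used as a check were built from the probes that were left in. They cannot show whether leaving the others out was right. The ratios were tested against 0 with lmFit and eBayes and Benjamini-Hochberg adjustment over 23721 probes at 0.05. The ratio pairs the pools of a replicate by construction. Precision is low with only 2 arrays. The p-values combine the spread between these 2 pairs of pools with the variance shared across probes. The spread had 1 residual degree of freedom and the shared variance had 4.42 prior degrees of freedom, so the p-values rested mostly on the shared variance. The median SD between the spots of a probe was 0.035 and 0.033 on the log2 scale.

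Named were all hedgehog members, every gene of the pathway lists with a called probe, the brightest probe of the 3 genes with the largest mean ratio in each list, the 3 genes nearest to a called member, and *Axin2* and *Lef1*. The members and lists were chosen with earlier results of these data known. Marker lists of other cell types were summed over the brightest probe per gene. Alternatives covered the background correction, normalization, flags, floor, filters, spot and probe summary, variance model, pairing, single replicates and the series table.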

Additional observations from a re-analysis of the deposited data

Results flagged for a closer look

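In 4 hedgehog probes the female and the male array moved in opposite directions. The male minus female difference in the log2 ratio of IWP-2 to control was 0.70 for the dimmer and 0.46 for the brighter *Hhip* probe, 0.20 for the brighter *Smo* probe and 0.19 for *Gli3*. Of all probes tested, 1.32%, 4.12%, 26.6% and 29.5% differed by at least as much in either direction. With 1 array of each sex the differences were not tested, and since the dyes were exchanged between the arrays, sex and dye cannot be told apart: opposite signs also mean that the green channel was the brighter one on both arrays.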

How the results depend on the processing

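The numbers of calls depended on the processing. The 28 higher and 90 lower probes became 92 and 179 with normexp background correction, 68 and 156 with ratios scaled between arrays, 239 and 293 with an intensity trend, and 6 and 48 with a floor of 1. Higher probes numbered 17 without further loess, 43 with a signal above 100 and 15 with the median over spots. The fit as first written kept probes with both channels of an array at the floor and gave 0 and 0 calls by limma, with 2965 probes at an unadjusted p under 0.05. Leaving these probes out was chosen after seeing the data. Among hedgehog probes, the 1 higher call became 2 with normexp and with the intensity trend, where *Shh* was added, and 0 with a floor of 1 and with probes at the floor kept. It was also 0 with a signal above 100 and with the brightest probe per gene, which leave the dimmer *Ptch1* probe out. The pathway lists had 2 higher probes with the intensity trend, both of *Foxf1*, and their 1 lower probe was lost (0) without further loess, with median centring, a floor of 1, the median over spots or probes at the floor kept. WNT targets had 5 lower probes with a floor of 1 and 0 with probes at the floor kept. With no replicate block, the 4 channels as unpaired samples, there were 0 higher and 7 lower probes, 0 among the hedgehog probes, 0 in the pathway lists and 2 among WNT targets. Among the hedgehog probes, tested settings turned the sign only of means between -0.04 and -0.00: with median centring *Smo* gave 0.01 and 0.00, *Gli3* 0.03 and the dimmer *Hhip* probe 0.04, and that *Hhip* probe gave 0.00 with normexp and 0.03 with scaling. Removing all filters other than the floor changed no count. Leaving out a replicate leaves 1 array and a value with no test: the dimmer *Ptch1* probe ranged from 0.95 to 1.13, *Shh* from 0.39 to 0.59 and the dimmer *Hhip* probe from -0.35 to 0.35. *Gpc6*, at a mean of -0.19, ranged from -0.42 to 0.03. Dim probes such as the *Cdon* probe at the floor give a bound, and with 2 arrays changes within the printed intervals were not detectable.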
